A study of Mus musculus with 6 samples.

Results

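The mouse detects odours and social signals with 3 large families of G protein-coupled receptor genes, the olfactory receptors (Olfr) and the type 1 and type 2 vomeronasal receptors (Vmn1r and Vmn2r). Every gene of the GENCODE annotation of the mm9 assembly with a name that starts with one of these family names was taken, which gave 1688 of the 37273 annotated genes on chromosomes 1 to 19, X and Y. They comprised 1251 Olfr, 257 Vmn1r and 180 Vmn2r entries, of which 1441 were annotated as protein coding, 239 as pseudogenes and 8 as processed transcripts. A total of 6 names occurred with 2 gene identifiers, and each identifier was counted as an entry of its own. In the study, chromatin of the hippocampus was immunoprecipitated with an antibody to histone H4 acetylated at lysine 5 (H4K5ac) or with control IgG, and sequenced beside input DNA. The fear-conditioned group (FC) had been trained in contextual fear conditioning, and the control group (CON) had met the context without the shock. Both groups were C57/BL6 mice of 6 months, with no genetic change named in the labels, and both had been through the memory test when the tissue was taken. Each group gave 1 H4K5ac, 1 IgG and 1 input library, so every value below compares single libraries and no test between groups was possible. Intervals cover the counting error of reads only, except those of shares of windows, which rest on counts of windows.

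The libraries held between 14549689 and 45673239 aligned reads. A read was counted at a receptor locus, which is the gene body joined with the 2 kb before the annotated start, when it overlapped it by at least 1 bp. Densities are reads per kb of locus, scaled by the total reads of the library (RPKM). Of the 10 genes that mark hippocampal and forebrain neurons, the annotation held all in 11 entries, and H4K5ac exceeded IgG by at least 2-fold in both groups at 3 of these entries (17.9% of all genes), with none 2-fold lower (13.6% of all genes). Whole hippocampus holds many cell types, and fewer cells with a mark cannot be told apart from less of the mark per cell.

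Olfactory sensory neurons of the nose each express a single Olfr allele, and the other receptor genes of the same cell stay silent in compacted chromatin that carries methylation of histone H3 lysine 9 and of H4 lysine 20. Sensory neurons of the vomeronasal organ choose among Vmn1r or Vmn2r genes in a comparable way. The genes lie in tandem clusters on many chromosomes, most Olfr and Vmn1r coding sequences sit in a single exon, and outside the nose most of them are not transcribed. Acetylation of H4 at lysine 5 is a mark of open chromatin at active genes.

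Promoters of these families were poor in guanine and cytosine. Over the 250 bases before and 50 after the annotated start, the median GC content was 35.0% for Olfr, 36.0% for Vmn1r and 37.3% for Vmn2r, against 50.3% over the promoters of all 37273 genes. The median receptor promoter held 1 CG dinucleotide and the median promoter of all genes held 6. The letters TAATGA, bound by homeodomain factors such as Lhx2, were found on either strand in 27.8% of receptor promoters and in 10.9% of all promoters. For TAATTA, also a homeodomain sequence, the shares were 17.1% and 6.41%, and for TATAAA they were 39.6% and 16.2%. The letters CCCNNGGG, the core of the site for Ebf factors, were found in 4.38% of receptor promoters, against 12.2% of all promoters, and by family in 2.96% of Olfr, 1.17% of Vmn1r and 18.9% of Vmn2r promoters. These counts are of letters on both strands, and matches of different motifs may overlap. The shares were not compared at equal GC content, so motif and base composition cannot be told apart in them. For 844 of the 1441 protein-coding members the annotation held no untranslated region, so the annotated start there is the start of the coding sequence and the true promoter may lie further upstream.

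The 250 bases before the start are shown for 7 members at the ends of the H4K5ac range described below, from the mm9 reference and 5′ to 3′ along the strand of the gene. Capitals mark the 4 motifs named above on either strand.
Olfr525 promoter, chr7:147508251-147508500, plus strand: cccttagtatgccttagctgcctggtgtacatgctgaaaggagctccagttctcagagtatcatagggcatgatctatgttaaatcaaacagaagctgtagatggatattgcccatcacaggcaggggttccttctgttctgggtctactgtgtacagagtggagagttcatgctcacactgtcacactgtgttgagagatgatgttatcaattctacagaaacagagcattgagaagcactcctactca
Olfr536 promoter, chr7:147693218-147693467, minus strand: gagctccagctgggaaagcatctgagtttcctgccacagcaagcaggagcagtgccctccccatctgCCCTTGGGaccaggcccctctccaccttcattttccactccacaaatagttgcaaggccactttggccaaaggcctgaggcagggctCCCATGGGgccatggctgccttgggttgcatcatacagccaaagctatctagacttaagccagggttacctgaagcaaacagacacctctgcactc
Olfr862 promoter, chr9:19688788-19689037, minus strand: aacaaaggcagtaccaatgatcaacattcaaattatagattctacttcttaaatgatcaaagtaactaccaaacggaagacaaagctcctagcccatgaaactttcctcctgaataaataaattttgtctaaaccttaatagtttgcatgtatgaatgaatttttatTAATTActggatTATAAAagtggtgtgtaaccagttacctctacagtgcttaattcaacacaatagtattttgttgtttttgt
Olfr1202 promoter, chr2:88657080-88657329, plus strand: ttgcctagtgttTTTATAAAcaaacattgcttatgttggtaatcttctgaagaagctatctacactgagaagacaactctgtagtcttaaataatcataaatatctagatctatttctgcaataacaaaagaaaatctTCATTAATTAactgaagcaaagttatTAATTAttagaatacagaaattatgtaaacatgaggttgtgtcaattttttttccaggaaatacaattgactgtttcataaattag
Vmn1r199 promoter, chr13:22474157-22474406, plus strand: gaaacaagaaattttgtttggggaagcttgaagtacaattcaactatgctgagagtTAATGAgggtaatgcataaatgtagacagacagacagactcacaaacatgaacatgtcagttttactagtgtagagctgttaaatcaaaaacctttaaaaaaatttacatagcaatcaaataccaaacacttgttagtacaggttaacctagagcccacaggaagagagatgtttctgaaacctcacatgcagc
Vmn1r-ps55 promoter, chr7:12439056-12439305, plus strand: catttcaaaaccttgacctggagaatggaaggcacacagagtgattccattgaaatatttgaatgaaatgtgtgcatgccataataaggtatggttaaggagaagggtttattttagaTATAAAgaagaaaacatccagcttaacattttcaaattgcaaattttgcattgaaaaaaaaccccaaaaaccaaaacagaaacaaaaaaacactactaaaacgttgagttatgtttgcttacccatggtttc
Vmn2r-ps79 promoter, chr7:93115276-93115525, plus strand: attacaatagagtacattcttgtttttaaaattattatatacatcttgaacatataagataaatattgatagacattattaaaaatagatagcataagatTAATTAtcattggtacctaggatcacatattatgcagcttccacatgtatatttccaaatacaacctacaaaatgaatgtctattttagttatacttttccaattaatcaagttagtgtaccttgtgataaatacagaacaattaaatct
The upstream sequences of Olfr525 and Olfr536, at the high end, had 45.2% and 56.4% GC, while those of Olfr862, Olfr1202 and Vmn2r-ps79, at the low end, had 30.4%, 26.8% and 24.0%. Among the 3 highest Vmn1r members, Vmn1r199, Vmn1r1 and Vmn1r200, it was 36.0%, 42.0% and 41.2%, and among the 3 lowest, Vmn1r-ps55, Vmn1r203 and Vmn1r172, 32.8%, 38.4% and 36.0%. Among the 3 highest Vmn2r members, Vmn2r29, Vmn2r-ps19 and Vmn2r-ps62, it was 39.2%, 73.2% and 47.6%, and among the 3 lowest, Vmn2r-ps79, Vmn2r34 and Vmn2r-ps60, 24.0%, 39.6% and 34.0%. Most high members thus had more GC than most low ones, and the ranges overlapped in both vomeronasal families.

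H4K5ac was depleted at the receptor loci of all 3 families in both groups. The pooled H4K5ac density over the receptor loci was 0.103 RPKM in FC and 0.0953 in CON. IgG over the same bases gave 0.351 in FC and 0.343 in CON, and input gave 0.228 and 0.306. At the loci of the 20926 other protein-coding genes, H4K5ac stood at 0.560 RPKM in both groups, and IgG at 0.417 in FC and 0.421 in CON. Input at these other genes was 0.456 in FC and 0.425 in CON. H4K5ac thus differed far more than IgG between receptor loci and other genes. Input was lower at receptor loci too, more so in FC.

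Against IgG, pooled H4K5ac at receptor loci was 3.40-fold lower in FC, a log2 ratio of -1.77 (95% interval -1.79 to -1.75), and 3.60-fold lower in CON, at -1.85 (-1.87 to -1.83). The other protein-coding genes had ratios of 0.42 in FC and 0.41 in CON. The Olfr family was least depleted, with -1.51 (-1.53 to -1.48) in FC and -1.58 (-1.60 to -1.55) in CON. Vmn1r loci stood at -2.09 (-2.16 to -2.01) in FC and -2.14 (-2.21 to -2.07) in CON. Vmn2r loci were lowest against IgG, at -2.22 (-2.26 to -2.18) and -2.34 (-2.38 to -2.30). In both groups the intervals of Olfr lay apart from those of the vomeronasal families. Those of Vmn1r and Vmn2r did not overlap each other in either group. Pooled values give more weight to entries with many reads. Over gene bodies, 1 Olfr entry held 1132 of the 10939 FC H4K5ac reads of its family, and 1 Vmn1r entry 333 of 1112. Medians over all members, including loci without reads, kept the order of the families, with Olfr and Vmn1r nearer each other. They were -1.82 in FC and -1.87 in CON for Olfr, -2.001 and -2.15 for Vmn1r, and -2.34 and -2.56 for Vmn2r. Against input the depletion was smaller in FC, at 2.21-fold for all members, and 3.21-fold in CON. The log2 ratios to input were -1.03 in FC and -1.45 in CON for Olfr, -1.42 (-1.48 to -1.35) and -1.97 for Vmn1r, and -1.33 (-1.37 to -1.30) and -2.11 for Vmn2r, so in FC Vmn1r was lowest by this measure, with intervals that overlap.

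The depletion was spread over the families rather than carried by a few members. Of the 1688 members, 1590 had at least 10 reads in each input library and were compared one by one. H4K5ac was at least 2-fold below IgG in both groups at 1228 of them, against 13.6% of all genes, which is 77.2% of the members compared. By family this held for 911 of 1238 Olfr, 171 of 194 Vmn1r and 146 of 158 Vmn2r genes. No member was at least 2-fold above IgG in both groups, where 17.9% of all genes were. The median log2 ratio of a member was -1.90 in FC and -1.98 in CON over all 1688, with 0.5 read added to each count. In FC, the members nearest the 2-fold limit lay at -1.001 and -0.999, on either side of it, so the count cuts through a continuous range.

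**Figure D1:**
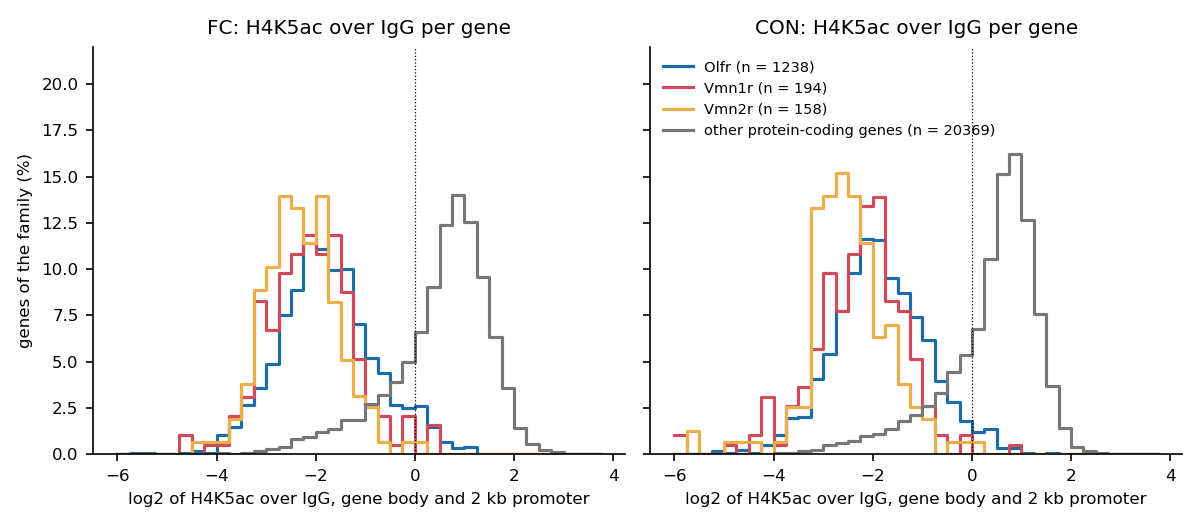
Distribution over genes of the log2 ratio of H4K5ac over IgG (x axis, steps of 0.25, with values beyond the axis put in the end steps) as the percent of genes of each family (y axis), in FC (left) and CON (right), for genes with at least 10 reads in each input library. The 3 receptor families peak well below 0, around their medians, and the 20369 other protein-coding genes peak above 0.

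The plot of the ratios by family shows a broad peak for each receptor family, well to the left of other genes. Counts behind a single locus were small, with a median of 11 H4K5ac reads in FC and 12 in CON, so ratios of single members are imprecise. At 64 members in FC and 68 in CON no H4K5ac read was found, and 53 were empty in both libraries. Many of these loci gave no read in the controls either, since 36 members in FC and 35 in CON had no input read, and 43 and 40 no IgG read. A count of 0 allows up to 3 reads.

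Pseudogenes were depleted as intact genes were, with an order that differed by family. Pooled over Olfr pseudogenes, H4K5ac over IgG was -1.79 in FC and -1.83 in CON, and over protein-coding Olfr genes -1.49 and -1.56. Vmn1r pseudogenes stood at -2.25 and -2.41, and protein-coding Vmn1r genes at -2.06 and -2.09. In the Vmn2r family the order was the other way round, with -1.91 and -1.99 for pseudogenes and -2.20 and -2.31 for protein-coding genes. The Vmn2r-ps11 pseudogene has a long annotated body that overlaps the Vmn2r7 gene, and the reads of such overlapping entries cannot be told apart.

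Around the annotated start, other protein-coding genes carried the usual shape of an active mark and receptor genes did not. Over the 20717 other protein-coding genes kept, mean H4K5ac in FC was 0.502 RPKM at 3 to 5 kb upstream and 0.682 over the 2 kb before the start. For Olfr genes these means were 0.127 and 0.132, for Vmn1r 0.0773 and 0.0727, and for Vmn2r 0.0642 and 0.0679. In CON they were 0.487 and 0.641 for other genes, 0.122 and 0.126 for Olfr, 0.0711 and 0.0736 for Vmn1r, and 0.0576 and 0.0653 for Vmn2r. The receptor profiles were thus flat up to the annotated start in both groups. No untranslated region was annotated at 844 of 1441 protein-coding members and at 1239 of 20926 other protein-coding genes. A rise at true starts further upstream could be missed in such means.

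**Figure D2:**
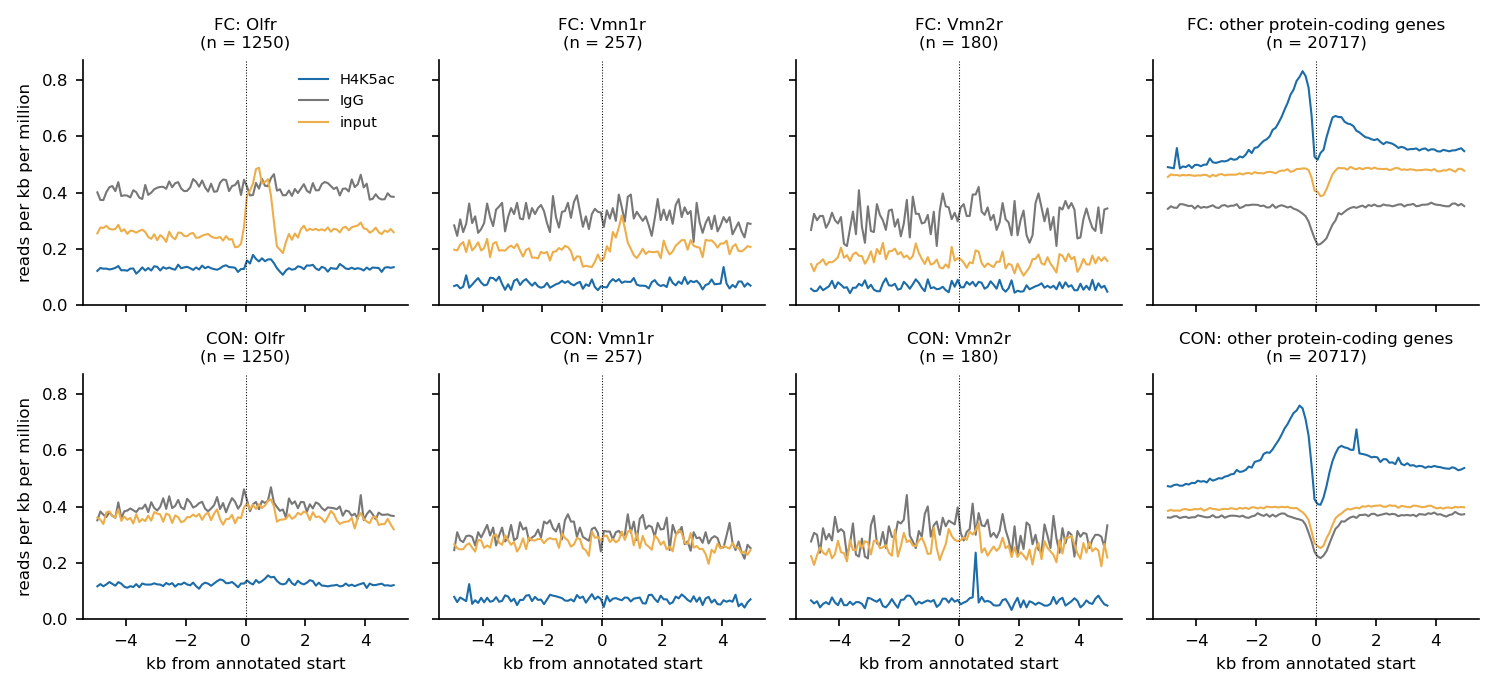
Mean density in RPKM (y axis) in bins of 100 bp within 5 kb of the annotated start (x axis, downstream to the right) for FC (top) and CON (bottom), by family, leaving out 373 of all genes, 1 of them a receptor gene, with the most input near the start. H4K5ac is near 0.13 before the start of Olfr genes, with means of 0.160 in FC and 0.139 in CON over the first kb after it. It is below 0.1 at vomeronasal genes, with a spike in CON at Vmn2r19, and rises before the start of other protein-coding genes.

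Inside the Olfr coding region the FC input library had a plateau that was weaker in CON input. Its mean density was 0.421 RPKM over the first kb, against 0.240 over the 2 kb before the start, while in CON the values were 0.406 and 0.364. The GC content of these 2 stretches was 43.0% and 35.7%. H4K5ac over the first kb of Olfr genes was 0.160 in FC and 0.139 in CON, slightly above the 2 kb before it. The spike in the CON profile of Vmn2r genes came from Vmn2r19, which gave 105 of the 153 H4K5ac reads of the family in that bin, at 2 distinct positions and strands, and none in FC. With H4K5ac reads counted once per position and strand, pooled values over all receptor loci were -1.80 in FC and -1.88 in CON.

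Promoter and gene body were both depleted. Over the 2 kb promoters of all receptor genes FC had a pooled ratio of -1.77 (-1.81 to -1.74) and CON one of -1.80 (-1.83 to -1.77). Over the gene bodies FC stood at -1.76 (-1.79 to -1.74) and CON at -1.88 (-1.91 to -1.86). Relative to IgG, Olfr promoters were lower than the bodies, at -1.69 (-1.72 to -1.65) against -1.32 (-1.35 to -1.28) in FC. In CON they had -1.70 (-1.73 to -1.66) against -1.45 (-1.49 to -1.41). Relative to input this order was reversed in FC, with -0.87 (-0.90 to -0.84) at Olfr promoters and -1.18 (-1.21 to -1.14) at bodies. It held in CON, with -1.53 (-1.56 to -1.50) and -1.37 (-1.41 to -1.34). For Vmn1r and for Vmn2r the intervals of promoters and bodies relative to IgG overlapped in both groups. Only 4 members had more than 50 H4K5ac reads in the promoter in FC, against 27.8% of all genes, and 2 members in CON, against 32.4%. These were Olfr1414, Olfr71, Olfr1331, Olfr523 and Olfr535, all of them in clusters rich in GC. The Olfr1331 promoter held 54 H4K5ac reads in FC and 59 in CON over 9 IgG reads in each group, and it was the single member at least 2-fold above IgG in both groups over the promoter alone, where 23.6% of all genes were.

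Low GC content went with low H4K5ac in the whole genome, and the receptor clusters lay below other sequence of the same GC content. The median GC content of a receptor locus was 37.5% for Olfr, 38.0% for Vmn1r and 36.1% for Vmn2r, against 44.6% for other genes. In the 6224 autosomal windows of 10 kb inside receptor clusters, the median log2 ratio of H4K5ac over IgG was -1.88 in FC and -2.01 in CON. The median over all other autosomal windows was -0.17 and -0.16. At the GC content of the cluster windows, windows outside the clusters had a median of -0.73 in FC and -0.66 in CON. The median difference between a cluster window and windows of its GC content was -1.07 in FC, and in CON it was -1.26. A total of 89.6% of the cluster windows in FC and 90.9% in CON lay below that median.

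Gene by gene, receptor genes also lay below other genes of similar GC content. Between 34% and 36% GC, the 243 Olfr genes compared had a median mean ratio of -2.14 and the 572 other annotated genes -1.30. Between 36% and 38% GC, the 250 Olfr genes had -2.06, the 55 Vmn1r genes -2.33, the 49 Vmn2r genes -2.42 and the 1586 other genes -0.75. Between 38% and 40% GC, the 55 Vmn1r genes had -2.26 and the 29 Vmn2r genes -2.13, so the order of the vomeronasal families changed. Between 40% and 42% GC, the values were -1.55 for 149 Olfr, -1.86 for 34 Vmn1r and -0.01 for 4473 other genes. Between 46% and 48% GC, 39 Olfr genes stood at -0.36 and 3947 other genes at 0.69. The Olfr values were higher in these classes as GC content rose, and in all 10 classes of 2% from 32% to 52% GC they stayed below other genes.

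Joined over gaps of up to 1 Mb, the members formed 42 clusters of at least 5 genes on 17 chromosomes, which held 1636 members over 63.5 Mb. A further 52 members lay in 33 smaller groups. H4K5ac over IgG at the member loci was below 0 with its whole interval in both groups in 38 clusters, and at least 2-fold lower in both groups in 32. All 42 clusters had a ratio to input below 0 in both groups, a count without intervals. In CON, chr4:43707872-43868335 and chr7:147347838-147891166 were near 0 by this ratio, at -0.04 and -0.09. The ratios to IgG of FC and CON, which share no library, ranked the clusters alike, with a Spearman coefficient of 0.965 and a Pearson coefficient of 0.981 over the 42 clusters. Clusters of unequal size and base composition are the points of that description.

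The largest cluster was chr2:85171054-90241831, with 268 Olfr genes and 4 other protein-coding genes in 5.07 Mb. H4K5ac there was 0.100 RPKM in FC and 0.0944 in CON, IgG was 0.396 and 0.376, and input was 0.217 and 0.349. Relative to IgG, FC stood at -1.98 (-2.05 to -1.92) and CON at -1.99 (-2.06 to -1.93). The 200 kb on each side of it had a mean ratio of 0.73, opposite in sign to the ratio at its members. Where the sign changed was not tested for this cluster.

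The chromosome 7 cluster chr7:109625287-112517869 holds 145 Olfr genes, among them the class I receptors, which resemble the receptors of fish and surround the beta-globin genes. H4K5ac there was 0.150 RPKM in FC and 0.142 in CON, IgG was 0.456 and 0.442, and input was 0.363 and 0.414. Its ratios to IgG were -1.61 (-1.68 to -1.53) and -1.64 (-1.71 to -1.56). The chromosome 9 cluster chr9:37518857-39995679, with 97 Olfr genes including Olfr151, was level with it at -1.62 (-1.71 to -1.53) and -1.59 (-1.68 to -1.50).

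Clusters of vomeronasal genes were found at the low end and in the middle of the range of ratios to IgG. The lowest by this ratio was chr17:17840905-21451873, with 15 Vmn1r and 22 Vmn2r genes. H4K5ac there was 0.0673 RPKM in FC and 0.0594 in CON, IgG was 0.464 and 0.434, and input was 0.177 and 0.321. Its ratios to IgG were -2.79 (-2.87 to -2.70) and -2.87 (-2.95 to -2.79). The order differed against input, where it stood at -1.39 in FC and -2.44 in CON. By that measure several clusters were lower in FC, most of them with vomeronasal genes. The lowest in FC was the Vmn2r cluster chr7:48655102-50189159, at -1.80, and the Olfr cluster chr2:36140548-37188253 stood at -1.51. In CON the lowest against input was the Vmn1r cluster chr7:20686507-24840710, at -2.71. The 10 clusters without an Olfr gene ranged in mean ratio to IgG from -2.83 to -1.29. For the 25 clusters of Olfr genes alone the range was -2.52 to 0.33. Of those 10, 5 were among the 6 lowest of all, and the other 5 had means between -1.85 and -1.29, a range that also holds the chromosome 7 and chromosome 9 Olfr clusters just described. The highest cluster without an Olfr gene was chr3:63885564-64648687, with 11 Vmn2r genes and ratios of -1.25 (-1.36 to -1.14) and -1.33 (-1.43 to -1.22). It holds the long overlapping entries Vmn2r7 and Vmn2r-ps11.

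A small set of Olfr clusters was not depleted against IgG. The 8 Olfr genes of chr4:43707872-43868335, which include Olfr70 and Olfr71, had H4K5ac of 0.445 RPKM in FC and 0.434 in CON over IgG of 0.353 and 0.346, with input at 0.623 and 0.447. This was the single cluster above IgG with both intervals, at 0.33 (0.09 to 0.59) and 0.33 (0.09 to 0.57). The 19 Olfr genes of chr7:147347838-147891166 had 0.420 and 0.424 over IgG of 0.386 and 0.424, and ratios of 0.12 (-0.06 to 0.31) and -0.00 (-0.16 to 0.17). The 8 Olfr genes of chr1:94376258-94517578 stood at -0.09 (-0.35 to 0.17) and -0.06 (-0.32 to 0.20). Against input all 3 were below 0 in both groups, the first at -0.48 in FC and -0.04 in CON, the second at -0.31 and -0.09, and the third at -0.76 and -0.44, so their place level with or above the control rested on IgG.

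**Figure D3:**
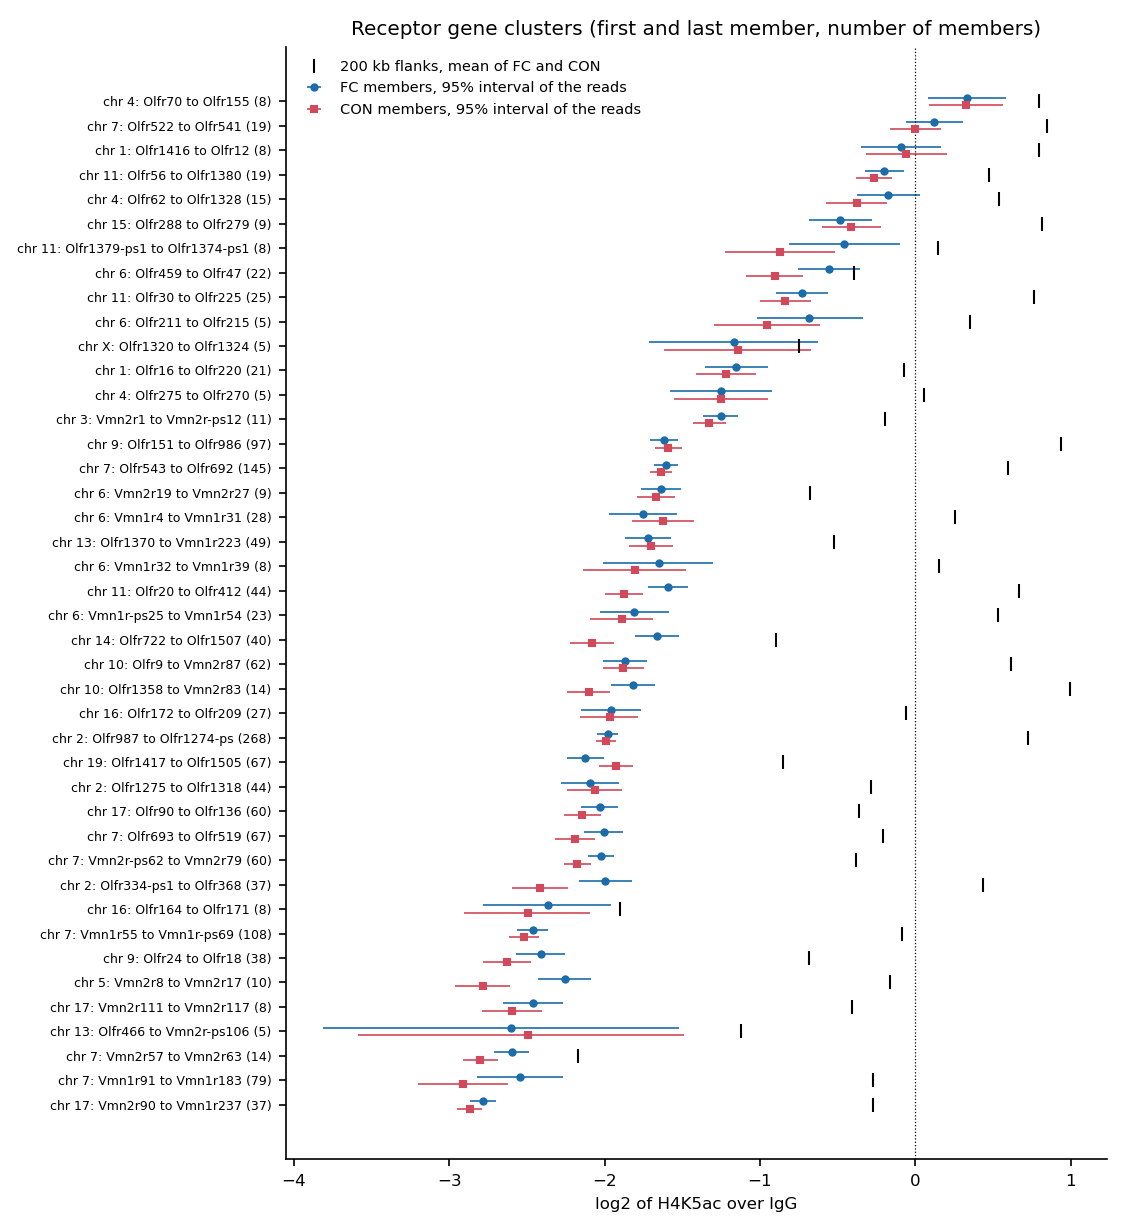
Log2 ratio of H4K5ac over IgG (x axis) pooled over the member loci of each of the 42 clusters (rows, with chromosome, first and last member and number of members) in FC (circles) and CON (squares), with exact 95% intervals of the reads, and over the 200 kb flanks (bars, mean of both groups). A total of 38 clusters lie below 0 with their whole interval in both groups, and most flanks lie to the right of their cluster.

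GC content and H4K5ac rose together over the clusters, with exceptions. The 7 clusters whose members had a median GC content of at least 44% ranged in mean ratio from -0.78 to 0.33, and the 35 others from -2.83 to -0.23. The 9 Olfr genes of chr15:98016444-98328837, at 47.3% GC, were depleted at -0.48 and -0.41 with both intervals below 0, while chr7:147347838-147891166, at 44.8%, was not. Over the 42 clusters, mean ratio and median GC content had a Spearman coefficient of 0.760 and a Pearson coefficient of 0.854. Other annotated genes also rose with GC content, as shown above, and the part of GC content in the cluster values was not tested.

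Olfr members near other genes were less depleted. Over all families, the 148 members compared with another protein-coding gene within 20 kb had median ratios of -1.12 (FC) and -1.24 (CON). The 1442 members without one had -1.97 and -2.05. Their median GC contents were 40.9% and 37.1%. The gap was widest for Olfr, with -0.91 in FC for 115 members near a coding gene, at a median of 43.1% GC, against -1.89 for 1123 others, at 37.1% GC. All Olfr members between 42% and 44% GC had a median of -1.12 in FC, and the part of GC content in the gap was not tested. For Vmn1r the 16 members near a coding gene had -1.78 in FC and -2.0 in CON, against -2.09 and -2.21 for 178 others. The 17 such Vmn2r members had -2.34 in FC and -2.36 in CON, against -2.33 and -2.59 for 141 others. The 48 members compared that lay outside the 42 clusters had medians of -0.67 and -1.004, and the 1542 inside them -1.92 and -2.02. For other protein-coding genes inside cluster spans, 344 in all, the medians were -0.17 and -0.14, against 0.72 and 0.64 for the 20025 outside. Other genes here are all those without a family name, so some are chemoreceptors themselves. Among them are the 7 Fpr genes of chr17:17840905-21451873. V1rh19 and V1ra8, vomeronasal receptors under older names, were also counted as other genes. Values without such genes were not computed. Clusters differed in this, since the 4 other coding genes inside chr2:85171054-90241831 had a median mean ratio of -2.11 and the 28 inside chr7:109625287-112517869 one of -1.46, close to the receptors around them.

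The mark fell at the cluster borders. Over the 33 clusters long enough to be followed 200 kb inwards, H4K5ac in the bin 180 to 200 kb outside the first or last member was 0.455 RPKM in FC and 0.448 in CON. It was 0.207 and 0.205 in the 20 kb next to the cluster and 0.124 and 0.125 in the first 20 kb inside. IgG over the same 3 bins was 0.375, 0.349 and 0.323 in FC and 0.387, 0.339 and 0.325 in CON. FC input fell from 0.418 to 0.294 and 0.258, and CON input from 0.395 to 0.326 and 0.307. In 40 of the 42 clusters the whole span had a lower ratio than its flanks in both groups, and the median difference between flanks and span was 1.24 on the log2 scale. The exceptions were the Vmn2r cluster chr7:48655102-50189159 and the cluster chr14:50513935-53115370, which holds 51 other protein-coding genes.

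**Figure D4:**
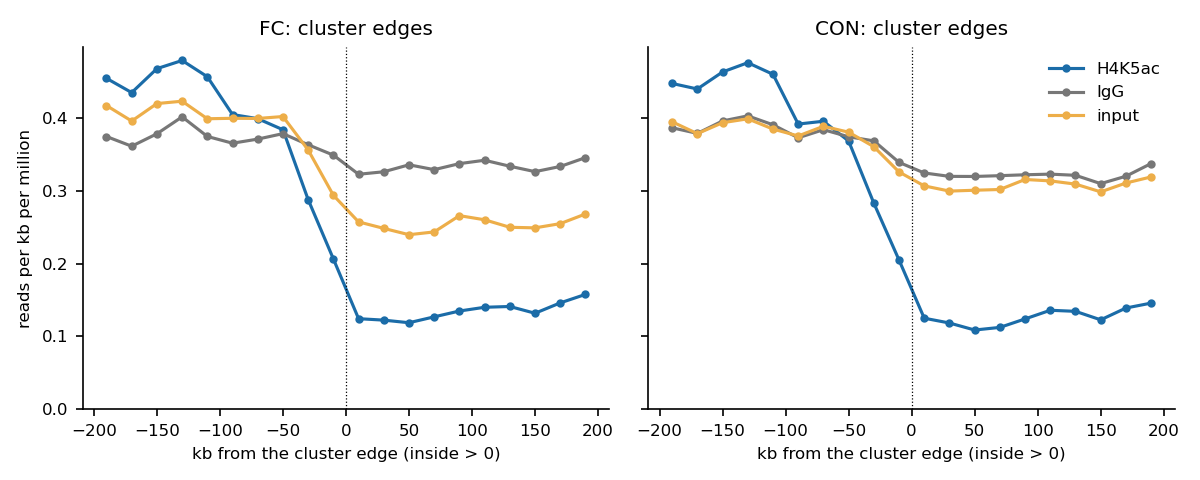
Density in RPKM (y axis) of H4K5ac, IgG and input in bins of 20 kb from 200 kb outside (negative) to 200 kb inside the edges of 33 clusters (x axis), in FC (left) and CON (right). H4K5ac falls from about 0.45 outside to about 0.12 inside, and IgG from about 0.38 to about 0.32.

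Windows rich in H4K5ac were almost missing from the clusters. A window of 1 kb was called rich when it held at least 10 H4K5ac reads and at least 4-fold more than both the genome mean and the depth-scaled IgG in both groups. In the clusters 2 of 63106 windows were rich, which is 0.00317% (exact 95% interval 0.000384 to 0.0114). In the 200 kb flanks 11 of 16658 windows were rich, 0.0660% (0.0330 to 0.118), and in the genome 2042 of 2558260, 0.0798% (0.0764 to 0.0834). These intervals treat windows as independent, which neighbouring windows are not, and the shares were not compared at equal GC content. Neither of the 2 cluster windows overlapped a receptor locus.

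The first, chr13:21500001-21501000, lay 5377 bp from the zinc finger gene Zkscan3 and 60168 bp from the nearest receptor gene, Olfr1367. It held 59 H4K5ac reads in FC and 57 in CON, with 4 IgG reads in each group and 23 and 13 input reads. The second, chr7:13550001-13551000, lay 187 bp from another zinc finger gene, Zfp324, whose start was 687 bp from the middle of the window, and 118638 bp from Vmn1r85. It held 55 and 60 H4K5ac reads, 5 and 6 IgG reads, and 28 and 19 input reads.

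Highest and lowest members were taken among those with at least 10 reads in each input and each IgG library, by the mean ratio of both groups. Members with fewer IgG reads reached higher values, such as Olfr1373, with 5 and 3 IgG reads, and lower ones. Within this limit the Olfr members with the highest ratios were Olfr525, Olfr1331 and Olfr536. Olfr525, at chr7:147508501-147509550, held 64 H4K5ac reads in FC and 62 in CON, 12 and 21 IgG reads, and 96 and 54 input reads. Its ratios were 1.30 (0.39 to 2.32) in FC and 0.44 (-0.30 to 1.23) in CON, so only the FC interval lay above 0. Olfr1331, at chr4:118537263-118542341, had 141 and 125 H4K5ac reads, 31 and 40 IgG reads, and 136 and 72 input reads, with ratios of 1.07 (0.50 to 1.68) and 0.52 (-0.00 to 1.07). Olfr536, at chr7:147686755-147693217, had 185 and 143 H4K5ac reads over 38 and 52 IgG reads, and ratios of 1.16 (0.65 to 1.71) and 0.33 (-0.13 to 0.82). H4K5ac at all 3 was between 0.470 and 0.692 RPKM, near the pooled density of other protein-coding genes.

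Within the same limit, the lowest Olfr ratios were at Olfr862, Olfr1202 and Olfr1146-ps1, whose promoters are poor in GC. Olfr862, at chr9:19687753-19688787, held 4 H4K5ac reads in FC and 3 in CON, 28 and 38 IgG reads, and 36 and 37 input reads. Its ratios were -3.93 (-5.90 to -2.41) and -4.79 (-7.13 to -3.13). Olfr1202, at chr2:88657330-88658259, held 3 and 1 H4K5ac reads, 11 and 24 IgG reads, and 22 and 42 input reads. The Olfr1146-ps1 pseudogene at chr2:87656688-87657609 held 6 and 1 H4K5ac reads over 21 and 19 IgG reads. Input at these 3 loci was between 0.873 and 1.38 of the level expected for their GC content, so their DNA was recovered.

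Among Vmn1r genes with this many reads the highest ratios were at Vmn1r199, Vmn1r1 and Vmn1r200. Vmn1r199, at chr13:22474407-22475510, held 39 H4K5ac reads in FC and 64 in CON, 31 and 15 IgG reads, and 69 and 54 input reads. FC had a ratio of -0.79 (-1.51 to -0.06) and CON one of 0.97 (0.14 to 1.89), and the IgG counts moved against the H4K5ac counts. Vmn1r1, at chr1:184087275-184088450, held 29 and 31 H4K5ac reads over 15 IgG reads in each group, with ratios of -0.17 (-1.11 to 0.84) and -0.08 (-1.01 to 0.92). Vmn1r200, beside Vmn1r199 at chr13:22486816-22487878, had -0.78 (-1.83 to 0.30) and -0.93 (-1.84 to -0.01).

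The lowest Vmn1r ratios in this set were at Vmn1r-ps55, Vmn1r203 and Vmn1r172. Vmn1r-ps55, at chr7:12439306-12439697, held 5 H4K5ac reads in FC and 0 in CON, 11 and 17 IgG reads, and 20 and 28 input reads. In CON, 3 reads, the limit taken for a count of 0, would be 12.4-fold below its IgG after scaling. The 95% interval of the ratio, which also covers the IgG count, reached up to -3.17. Vmn1r203, at chr13:22615920-22616855, held 9 and 0 H4K5ac reads over 16 and 20 IgG reads. In CON the same limit of 3 reads would be 14.5-fold below IgG, and the interval reached up to -3.43. Vmn1r172, at chr7:24443335-24445682, held 6 and 2 H4K5ac reads over 24 and 21 IgG reads, with ratios of -3.12 (-4.70 to -1.79) and -4.52 (-7.65 to -2.48). Of the 50-mers sampled at Vmn1r203 and Vmn1r172, 70.2% and 68.8% were unique in the genome, and input there was below the level expected for the GC content.

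Of the 1590 members compared, 27 were above IgG in both groups, all of them among the 1238 Olfr genes. None of the 194 Vmn1r and 158 Vmn2r genes compared was among them. The median of all genes compared lay above IgG, at 0.48 in FC and 0.41 in CON, and their share above it in both groups was not counted. The highest Vmn2r gene within the limit was Vmn2r29, at chr7:7184038-7200039. It held 25 H4K5ac reads in FC and 44 in CON, 23 and 28 IgG reads, and 35 and 41 input reads. Its ratios were -0.999 (-1.88 to -0.12) and -0.47 (-1.19 to 0.27), but only 24.0% of its 50-mers were unique. Next came the pseudogenes Vmn2r-ps19, with -0.70 (-1.65 to 0.26) and -0.93 (-1.84 to -0.01), and Vmn2r-ps62, with 0.02 (-1.12 to 1.26) and -1.68 (-2.66 to -0.73). The lowest were Vmn2r-ps79, Vmn2r34 and Vmn2r-ps60. Vmn2r-ps79, at chr7:93115526-93115902, held 2 and 4 H4K5ac reads over 19 and 23 IgG reads, with ratios of -4.37 (-7.51 to -2.32) and -3.65 (-5.64 to -2.10). Vmn2r34, with 11.1% unique 50-mers, held 8 and 0 H4K5ac reads over 14 and 11 IgG reads, and Vmn2r-ps60 held 7 and 2 over 18 and 33.

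Much-studied receptors followed their families. Of 16 such members, 15 were in the annotation, and 14 had a ratio below 0 in both groups. This is close to the share of all members, since 1502 of the 1590 compared were below IgG in both groups. The share of all genes below it in both groups was not counted. The exception among the 15 was Olfr545 (S50), a class I receptor, with 22 H4K5ac reads in each group over 7 IgG reads in FC and 19 in CON. Its ratios were 0.53 (-0.74 to 2.00) and -0.91 (-1.87 to 0.05). Olfr78, which responds to short-chain fatty acids and is also expressed outside the nose, held 133 and 150 H4K5ac reads over 187 and 173 IgG reads, with ratios of -1.61 (-1.94 to -1.28) and -1.33 (-1.66 to -1.01). Olfr151 (M71), a receptor for acetophenone, held 149 and 200 H4K5ac reads over 162 and 138 IgG reads, with -1.24 (-1.57 to -0.91) and -0.59 (-0.91 to -0.27). Olfr124 (SR1) was lowest of the 15 in FC, with 7 H4K5ac reads in each group over 28 and 22 IgG reads and ratios of -3.12 (-4.56 to -1.89) and -2.78 (-4.25 to -1.50).

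The vomeronasal receptors in this set were depleted too. Vmn1r85 and Vmn1r89, receptors for sulphated steroids, had ratios of -1.32 (-2.26 to -0.39) and -2.27 (-3.29 to -1.31) in FC and of -1.24 (-2.10 to -0.38) and -2.18 (-3.31 to -1.14) in CON. Vmn2r1, of the broadly co-expressed Vmn2r subfamily, held 149 and 133 H4K5ac reads over 134 and 167 IgG reads, with -0.97 (-1.31 to -0.62) and -1.45 (-1.79 to -1.12). Vmn2r116, the receptor of a male tear peptide, held 55 and 39 H4K5ac reads over 126 and 149 IgG reads, with -2.32 (-2.80 to -1.85) and -3.06 (-3.61 to -2.54). The other 7 of the 15 lay within the range of those named here.

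Between FC and CON, pooled H4K5ac over whole receptor loci was slightly higher in FC. The log2 ratio was 0.12 (0.09 to 0.14) for all members, 0.11 (0.08 to 0.13) for Olfr, 0.10 (0.02 to 0.18) for Vmn1r and 0.15 (0.10 to 0.19) for Vmn2r. Other protein-coding genes had -0.00. The excess over other genes did not hold over the 2 kb promoter alone, where all members had 0.06 (0.02 to 0.09), Vmn1r had -0.02 and other protein-coding genes had 0.09. Over the whole loci IgG moved by 0.03 (0.02 to 0.05) at receptor loci, and input by -0.43 (-0.44 to -0.41). With 1 library a group, a difference between mice, between libraries and between conditions cannot be told apart.

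Single members gave no firmer picture. At 156 of the 1590 members compared H4K5ac was at least 2-fold higher in FC, against 2.22% of all genes, and at 79 at least 2-fold lower, against 1.46%. The members' shares were 9.81% and 4.97%, and the share of genes 2-fold apart depended on the number of reads. With 10 to 24 H4K5ac reads in both libraries together, 20.0% of 706 members and 21.0% of 2854 of all genes were 2-fold apart in either direction, and with 25 to 49 reads 9.59% of 490 members and 8.72% of 3668 genes were. Among the 296 members with at least 50 reads, 5 were 2-fold higher, which is 1.69% against 0.269% of all genes with such counts, and 2 were 2-fold lower, 0.676% against 0.212%. At 50 to 99 reads the shares apart in either direction were 3.14% of members and 2.31% of all genes, and at 100 or more reads 0.952% of members, which is 1 of 105, and 0.127% of all genes.

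These 7 were Olfr961, Olfr1390, Vmn2r8, Olfr1411 and Olfr367-ps, which were higher in FC, and Olfr262 and Olfr535, which were lower. Olfr961 held 39 H4K5ac reads in FC and 17 in CON, a log2 ratio of 1.38 (0.53 to 2.30) after scaling. Olfr1390 held 35 and 16, and Vmn2r8 held 49 and 25. Olfr262 held 19 and 50 reads, with -1.21 (-2.05 to -0.42), and Olfr535 39 and 92, with -1.05 (-1.63 to -0.50). The Olfr269-ps1 pseudogene, next among the lower members, held 18 and 38 reads and did not reach 2-fold.

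By cluster, the FC to CON ratio of H4K5ac ranged from -0.22 to 0.50 over the 42 clusters, that of IgG from -0.20 to 0.21 and that of input from -0.87 to 0.54. The interval for H4K5ac lay above 0 in 18 clusters and below 0 in 1. It was highest for the 37 Olfr genes of chr2:36140548-37188253, at 0.50 (0.29 to 0.70). The cluster below 0 was chr19:11902567-13994534, with 67 Olfr genes and a ratio of -0.16 (-0.29 to -0.03).

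Input measured how much DNA of each locus was recovered and aligned. It was set against the median of autosomal windows of 10 kb with the same GC content in the same library. Autosomal Olfr loci had a median of 0.993 of that level in FC and 0.985 in CON, Vmn1r loci 0.742 and 0.831, and Vmn2r loci 0.697 and 0.775. Other autosomal genes had 0.969 and 0.981. Without the GC term the members' medians were 0.632 in FC and 0.887 in CON, against 1.25 and 1.00 for other autosomal genes.

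Input followed how often a locus recurs in the genome. The median member had 95% unique 50-mers in the Olfr, 86.3% in the Vmn1r and 80.4% in the Vmn2r family. The 733 autosomal members with at least 95% unique 50-mers had median input of 1.11 and 1.09 of the expected level in FC and CON. Those with 50% to 80%, 209 in all, had 0.604 and 0.657, and the 93 with under 20% had 0.0278 and 0.025. The 79 Vmn1r genes of chr7:20686507-24840710, with a median of 8.73% unique 50-mers, had input of 0.0301 RPKM in FC and 0.0518 in CON, and H4K5ac of 0.0104 and 0.00789.

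**Figure D5:**
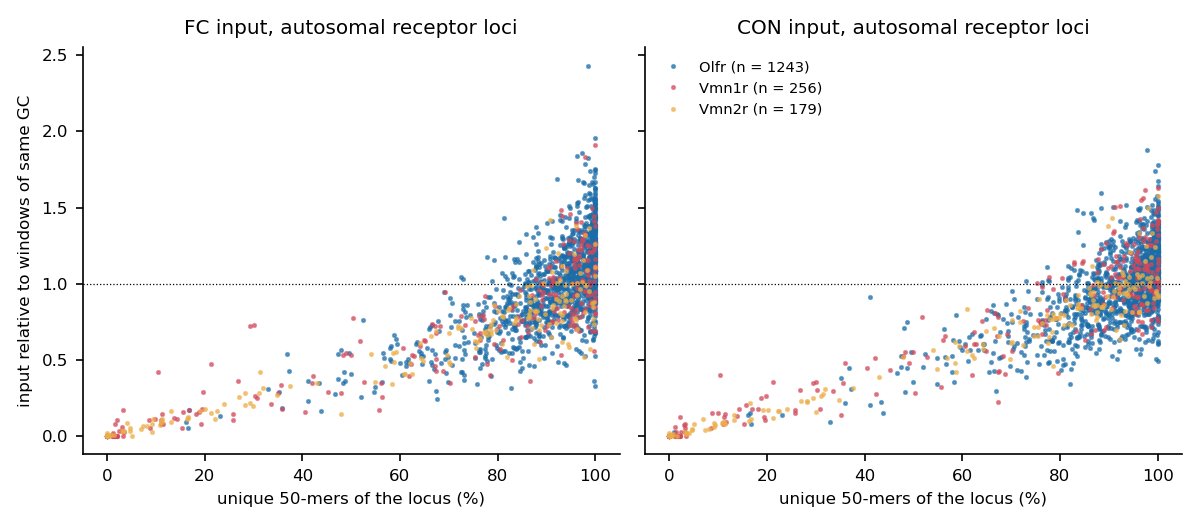
Input reads of each autosomal receptor locus relative to 10 kb windows of the same GC content (y axis) against the percent of its 50-mers that occur once in the genome (x axis), in FC (left) and CON (right). Input rises with uniqueness, from near 0 to a broad cloud around 1 at loci with at least 95% unique 50-mers.

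At 232 of 1678 autosomal members input was at least 1.5-fold below the expected level in both groups, against 9.16% of all autosomal genes. Of these, 220 had under 80% unique 50-mers, so the low input cannot be told apart from reads that could not be placed. The 12 others, all Olfr genes or pseudogenes, held between 14 and 79 input reads a library, and Olfr1235-ps1, with 99.7% unique 50-mers, stood lowest among them in FC at 0.362, with 0.501 in CON. These 12 are described after their values were seen.

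Input at least 1.5-fold above the expected level in both groups was found at 1 member, against 0.286% of all autosomal genes. This was Olfr866, at chr9:19831403-19832479, with 40 input reads in FC and 69 in CON, 1.67 and 1.78 of the expected level. Its H4K5ac was 15 and 11 reads over 44 and 47 IgG reads. Olfr31 and Olfr1230 came next, with 1.96 and 1.30 and with 1.67 and 1.41. At the other end Olfr1506 and Vmn2r-ps40, with 0.0% unique 50-mers, had no read in any of the 6 libraries, and Vmn2r-ps10 had 3 reads in CON input and none elsewhere.

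The 10 members on the X chromosome had a median input of 0.580 of the autosomal level in FC and 0.617 in CON, and the 2589 other X genes 0.476 and 0.489. The study used males, which carry a single X. Vmn2r121 stood apart, with 135 and 138 input reads and 1.34 and 0.982 of the autosomal level. It is named here after its value was seen.

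Mapping quality scores were lower at the vomeronasal loci. The median score of FC H4K5ac reads was 76 at Olfr, 58 at Vmn1r and 54 at Vmn2r loci, against 86 at other protein-coding genes. For FC IgG it was 83, 72, 63 and 83. The ratio of H4K5ac to IgG moved with uniqueness in ways that differed by family. Over all families the 1327 members compared with at least 80% unique 50-mers had medians of -1.88 (FC) and -1.96 (CON). The 263 others had -2.01 and -2.12. Vmn1r members with at least 80% unique 50-mers stood at -2.07 in FC and -2.09 in CON, and those below that at -2.22 and -2.65. For Vmn2r members the order was the other way round, with -2.41 and -2.60 at the more unique loci and -2.12 and -2.45 at the others. Olfr members stood at -1.81 in FC and -1.89 in CON at the more unique loci, and at -1.89 and -1.73 at the others.

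Genes of receptor signalling were not low as a list. Of the 20 genes of olfactory and vomeronasal signal transduction, H4K5ac was at least 2-fold above IgG in both groups at 6 (17.9% of all genes), with none 2-fold lower (13.6% of all genes), and the medians were 0.95 in FC and 0.73 in CON, against 0.48 and 0.41 over all genes compared. Gnai2 and Gnao1, G protein subunits of vomeronasal neurons that are also abundant in the brain, stood at 1.87 and 1.76 and at 1.85 and 1.57. Cnga2, a subunit of the olfactory cyclic nucleotide channel, stood at -0.10 and -0.04. Of the 15 entries for 14 regulators of receptor choice, 3 were 2-fold higher, a share near the 17.9% of all genes, and none 2-fold lower, with Atf5 highest at 2.00 and 1.23 and Ebf3 lowest at -0.43 and -0.95.

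Markers of the sensory neurons, all 8 of which are also in the signalling list, included none that was 2-fold lower. For the 6 markers of olfactory sensory neurons the medians were 0.81 in FC and 0.12 in CON, against 0.48 and 0.41 over all genes, and 2 were 2-fold higher, Gng13 and Omp, against 17.9% of all genes. The 2 vomeronasal markers, Trpc2 and Gng8, stood at 0.63 and 0.99 in FC and at 0.76 and 1.10 in CON. The 6 liver genes had medians of -0.50 and -0.36, with 1 of them, Apoa1, 2-fold higher.

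Other chemoreceptor families were also low. Of 61 genes, 36 were at least 2-fold lower in both groups, against 13.6% of all genes, and 2 at least 2-fold higher, against 17.9%. The 7 Fpr genes, formyl peptide receptors of which several are expressed in the vomeronasal organ, had medians of -2.70 in FC and -2.33 in CON. All 7 lie inside the receptor cluster that was lowest against IgG, chr17:17840905-21451873. The 35 bitter taste receptors (Tas2r) had -1.33 and -1.58, and the 16 trace amine receptors (Taar) -1.07 and -1.34. The 3 Tas1r genes, receptors for sweet and umami taste that have several exons, differed from these with 1.53 and 1.01.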

How the data were processed

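Hippocampal chromatin of FC and CON mice was sequenced in 6 libraries. Per the paper, reads of 50 bases from a SOLiD sequencer were aligned by the authors with Bioscope to mm9. The deposited files list 1 aligned read per line, and the value in each line is the aligner's mapping quality score, from 4 to 100 as deposited. Duplicate reads had been kept. The authors' methods describe 3 hippocampal samples per group, individually cross-linked, and a pooling of libraries after gel purification, without saying which libraries were combined into the single library of each kind.

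From the deposited reads, those overlapping each locus by at least 1 bp were counted with all scores kept, and scaled by the library total. Ratios of pooled counts have exact binomial intervals (Clopper-Pearson, 95%). Reads without molecular identifiers are not independent molecules. Medians over genes, counts of genes past a limit and the ranking of members used ratios with 0.5 read added to each count. Ratios of single members printed with an interval had none added. Uniqueness was the share of 50-mers that occur once in the mm9 genome on either strand, taken every 5 bases at receptor loci and every 50 at other genes. Gene positions came from the GENCODE annotation of mm9. The steps were run in Python 3.11.15 with NumPy 2.4.6, pandas 2.3.3, SciPy 1.17.1, numba 0.67.0 and matplotlib 3.10.9, and the counting was tested on simulated data.

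The members and lists were chosen with earlier results of these data known. Members named in the text are, for each family, the 3 highest and 3 lowest by mean H4K5ac over IgG among those with at least 10 reads in each input and IgG library, the 3 with most and least input, the 3 with the largest FC to CON ratio in each direction among those with at least 50 H4K5ac reads, 16 fixed by name, and the genes next to windows rich in H4K5ac. Other members named in the text, such as Olfr1373, Vmn2r19, Vmn2r7 and Vmn2r-ps11, were chosen after their values were seen, stand in a small count, or mark a cluster. Counts of loci 2-fold lower, the limit of 50 reads for FC to CON, and input as the denominator by cluster were added after seeing the data.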

Additional observations from a re-analysis of the deposited data

How the results depend on the processing

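The depletion of H4K5ac at receptor loci kept its direction under every alternative run. Counting 1 read per position and strand moved the log2 ratio to IgG from -1.77 to -1.80 in FC and from -1.85 to -1.88 in CON, and protein-coding genes alone gave -1.74 and -1.82. In CON, a promoter of 5 kb gave -1.82 and the 2 kb promoter alone -1.80. Input as the denominator gave -1.14 in FC and -1.68 in CON, and the cause of the wider gap between groups was not tested.

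The FC to CON ratio of 0.12 became 0.0577 over the 2 kb promoter alone, where that of Vmn1r loci turned to -0.0197, 0.083 less the ratio of IgG, and 0.54 less the ratio of input. The count of 235 loci at least 2-fold apart between FC and CON became 118 with a promoter of 5 kb, 438 over the 2 kb promoter alone, and 7 with at least 50 reads. The count of 0 loci 2-fold above IgG became 1 over the 2 kb promoter alone. Of the 233 loci with input off the expected level, 13 were left with at least 80% unique 50-mers. The share of rich cluster windows rose to 0.0618% at a limit of 3-fold, against 0.629% of the genome, and with input as the control 0.00317% of cluster windows and 0.0149% of the genome were rich, a smaller gap.

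With input as the denominator, the cluster on chromosome 7 from 147347838 turned to -0.31 in FC, and that on chromosome 4 from 43707872 to -0.48 in FC and -0.0448 in CON. The other 35 values of the main results moved within their interval or within 1.5-fold. No paired analysis was possible because each group has 1 library of each kind. Depth limits single loci, since a median of 11 or 12 H4K5ac reads leaves wide intervals around each ratio.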
